A study of Mus musculus with 15 samples.

Results

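The Hox cluster genes of the mouse were followed across 15 Affymetrix mouse gene arrays of embryonic and adult kidney. Members were all probe sets whose only gene symbol in the platform annotation is a Hoxa, Hoxb, Hoxc or Hoxd symbol, which gave 37 of the 19938 genes with a probe set of their own. They belong to the 4 Hox clusters. Hoxb8 appeared only on a probe set shared with Hoxb7 and was not counted. Each of the 37 members had 1 probe set. Cluster A contributed 10 members, and clusters B, C and D contributed 9 each.

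Hox genes encode homeodomain transcription factors. Genes of a cluster lie in the order in which they are used along the head-to-tail axis of the embryo, and genes with the same number in different clusters are paralogues that can stand in for one another. In the mouse kidney, Hoxa11, Hoxc11 and Hoxd11 are known to act together in the metanephric mesenchyme, where Hox11 proteins with Eya1 and Pax2 activate Six2 and Gdnf. Pbx and Meis proteins are homeodomain cofactors that bind DNA together with Hox proteins, and Polycomb and Trithorax complexes keep the clusters silent or active.

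Of the 15 arrays, 4 held single metanephric mesenchyme (MM) cells, of the tissue that forms the nephrons, from embryos at 11.5 days post coitum that carried Tg(Crym-EGFP)GF82Gsat. Another 5 arrays held single juxtaglomerular (JG) cells of adult male mice with a Ren1c-YFP reporter, which marks cells that use the renin promoter. For the JG cells, the dissection text of the labels names Ren1d GFP mice instead. The adult male Ren1c-YFP cortex was a lysate of mixed cell types. It was diluted and amplified like the single cells in 3 libraries (diluted cortex), with 32 rounds recorded, and labelled by a NuGEN kit in 3 libraries (standard-labelled cortex), with 1 round recorded. The strain is unspecified for all arrays, and the sex of the MM embryos is unknown. Cells were freed by microdissection, and JG cells also by collagenase A and trypsin, and each was drawn up in a pulled glass needle. No label names an animal, so the cells of a group counted as 1 sample and no test was run on them. For the cortex libraries, nothing says that they came from separate animals, so a p-value here reflects no more than library-to-library spread, which may be technical.

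Values are log2 signals. A gene was called above background on an array where its signal exceeded the 99th percentile of 1193 olfactory and vomeronasal receptor probe sets on that same array. For MM arrays this level lay between 7.15 and 7.57, for JG arrays between 7.56 and 7.94, for diluted cortex between 6.19 and 6.305 and for standard-labelled cortex between 6.31 and 6.52. Of all 19938 genes, an MM array had 10.8% to 20.8% above it, a JG array 6.70% to 14.2%, a diluted library 48.2% to 50.4% and a standard-labelled library 43.7% to 48.1%. Probe sets differ in brightness for the same amount of RNA, so levels are set beside one another only within a gene.

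The labels were checked against cell type markers. Between 2 and 5 of 12 mesenchyme markers were above background in an MM cell, and 0 to 6 in a JG cell. This list includes the members Hoxa11, Hoxc11 and Hoxd11, so it is not independent of the Hox values. Hoxd11 was above background in every MM cell and in 2 of 5 JG cells, and is part of those counts. Over the 12 markers the MM cells had a median signal of 6.89 to 7.19 and the JG cells one of 7.11 to 7.54. Eya1 was below background on all 15 arrays. Six2 reached 10.13 in MM cell 16. Foxd1, a marker of stromal progenitors, reached 9.03 in MM cell 14 and 11.33 in MM cell 19. The other stroma markers Tbx18, Tcf21 and Pdgfra were below background in both cells. Meis1, also of that list, was barely above it in MM cell 14 and below it in MM cell 19. The renin cell markers Crip1 and Mgp stood at 11.96 to 13.46 in the JG cells, against 6.41 to 7.93 in the MM cells, and Ren1 was not measured. The third measured renin cell marker, Rgs5, read 10.44, 6.82, 9.76, 10.55 and 5.99 in JG cells 4 to 8, against 7.12, 5.44, 5.67 and 5.88 in MM cells 14, 15, 16 and 19. It was below background in JG cells 5 and 8, which lay below MM cell 14, and was not called between the groups. Proximal tubule markers were above background for 0 of 5 in MM cells and 0 to 1 of 5 in JG cells. In both kinds of cortex 5 of 5 were. Of 4 collecting duct principal cell markers, 2 to 3 were above background in an MM cell and 1 to 3 in a JG cell. All 4 were above it in cortex and were called lower in both kinds of cells than in diluted cortex. Aqp2 was above background in every cell, at 8.15 to 8.97. Hsd11b2 read 11.2 in MM cell 15 and 11.01 in MM cell 19.

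The microRNA genes inside the clusters come in families, and their mature sequences are shown because 1 of them, from the Mir196b gene, was among the features of the clusters with the widest gap between cortex libraries. Sequences are from RefSeq on GRCm38.p6, written 5′ to 3′, with the seed (bases 2 to 8) in capitals. Mir196b lies between Hoxa9 and Hoxa10 on the minus strand (mature form chr6:52230129-52230150). Mir196a-1 lies between Hoxb13 and Hoxb9 and Mir196a-2 between Hoxc10 and Hoxc9, and both give the same mature form.
miR-196b-5p: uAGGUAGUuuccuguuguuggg
miR-196a-5p: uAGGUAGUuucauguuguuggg
miR-10a-5p: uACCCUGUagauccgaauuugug
miR-10b-5p: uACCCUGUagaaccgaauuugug

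The seed was identical within each pair. Counted from the 5′ end, miR-196b-5p and miR-196a-5p differed only by C12A, and miR-10a-5p and miR-10b-5p only by U12A. The arrays measure the annotated microRNA gene, not the mature form.

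RefSeq promoter windows, from 250 bases before to 50 after a gene's start, were available for 21 of the 37 members with 23 starts. The windows of 3 HoxD genes are shown because these neighbours had different patterns across the arrays: Hoxd8 was above background in cortex and in no cell, Hoxd10 in MM cells and cortex, and Hoxd11 on every MM and cortex array. All lie on the plus strand of GRCm38.p6, at chr2:74704365-74704664 for Hoxd8, chr2:74691641-74691940 for Hoxd10 and chr2:74679308-74679607 for the first listed of 2 Hoxd11 starts. Capitals mark CpG dinucleotides.
Hoxd8: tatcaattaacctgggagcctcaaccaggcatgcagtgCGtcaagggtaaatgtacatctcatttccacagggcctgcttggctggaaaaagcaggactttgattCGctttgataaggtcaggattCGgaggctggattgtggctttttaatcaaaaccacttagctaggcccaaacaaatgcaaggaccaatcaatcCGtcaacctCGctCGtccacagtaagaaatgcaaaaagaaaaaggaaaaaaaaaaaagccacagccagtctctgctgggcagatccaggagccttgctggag
Hoxd10: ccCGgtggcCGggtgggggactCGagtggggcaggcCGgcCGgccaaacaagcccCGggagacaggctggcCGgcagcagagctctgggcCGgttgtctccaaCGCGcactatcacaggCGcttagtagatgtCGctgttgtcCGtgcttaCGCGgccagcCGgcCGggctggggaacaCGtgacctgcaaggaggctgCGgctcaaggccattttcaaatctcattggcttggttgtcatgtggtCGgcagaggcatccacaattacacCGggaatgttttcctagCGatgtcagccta
Hoxd11: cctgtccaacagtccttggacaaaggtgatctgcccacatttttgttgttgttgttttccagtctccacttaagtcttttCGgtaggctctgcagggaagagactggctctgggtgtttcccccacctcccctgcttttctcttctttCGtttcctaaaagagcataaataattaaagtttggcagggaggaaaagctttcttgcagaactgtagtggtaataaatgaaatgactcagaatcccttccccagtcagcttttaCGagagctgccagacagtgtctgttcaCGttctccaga

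The Hoxd8 window held 6 CpG dinucleotides at 46.7% GC, the Hoxd10 window 22 at 62.7% and the Hoxd11 window 4 at 45.7%. The 23 windows of Hox members had a median of 15 CpG dinucleotides at 58.0% GC, against 7 at 52.7% over all 32851 windows of the table. Both strands were searched for 3 motifs: TGATNNAT, the form bound by Hox with Pbx, TTTATNG, a form bound by posterior Hox proteins, and TATAAA, the TATA box. The reverse of TATAAA shares letters with TTTATNG, so matches to these may overlap. None of the printed windows held any of them. TGATNNAT was in 3 of the 23 Hox windows (13.04%) and in 8.85% of all windows, TTTATNG in 1 (4.35%) and in 10.9%, and TATAAA in 3 (13.04%) and in 13.6%.

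Hox genes were found on every array. How many, and in which group most, depended on the background level, and the counting rule differed between cells and cortex. In MM cells 19 of the 37 members (51.4%) were above background in at least 1 cell, against 30.5% of all genes. In JG cells there were 15 (40.5%), against 21.2% of all genes. Diluted cortex had 20 members above background in all 3 libraries (54.1%, against 45.8% of all genes), and standard-labelled cortex had 18 (48.6%, against 42.7%). In the cortex lysate, fewer cells of a type and less RNA per cell cannot be told apart. Above background by at least 1 log2 unit, a level chosen after seeing the data, there were 14 members in MM cells (37.8%, against 18.3% of all genes) and 6 in JG cells (16.2%, against 7.85%). At that level there were 13 in diluted cortex (35.1%, against 31.7%) and 6 in standard-labelled cortex (16.2%, against 26.3%), where the members' share lay below that of all genes. With the 95th percentile of the receptors as the level there were 28 in MM cells, 28 in JG cells, 23 in diluted and 23 in standard-labelled cortex. A member needed at least 1 cell in the cell groups but all 3 libraries in cortex. No share of all genes is given at that level, so these counts do not rank cells and cortex.

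Single arrays differed more among cells than among cortex libraries. MM cells 14, 15, 16 and 19 had 17, 11, 10 and 14 members above background, and JG cells 4 to 8 had 6, 3, 6, 7 and 13. Diluted cortex libraries A, B and C had 21, 20 and 20, and standard-labelled libraries 18, 21 and 21. JG cell 8 lay within the range of the MM cells, while the other 4 JG cells lay below it. Across all genes JG cell 8 was also the highest of its group (14.2%), and MM cells 14 and 19 the highest of theirs (20.5% and 20.8%), with MM cell 16 the lowest (10.8%). The part of this share in the Hox counts was not tested.

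**Figure D1:**
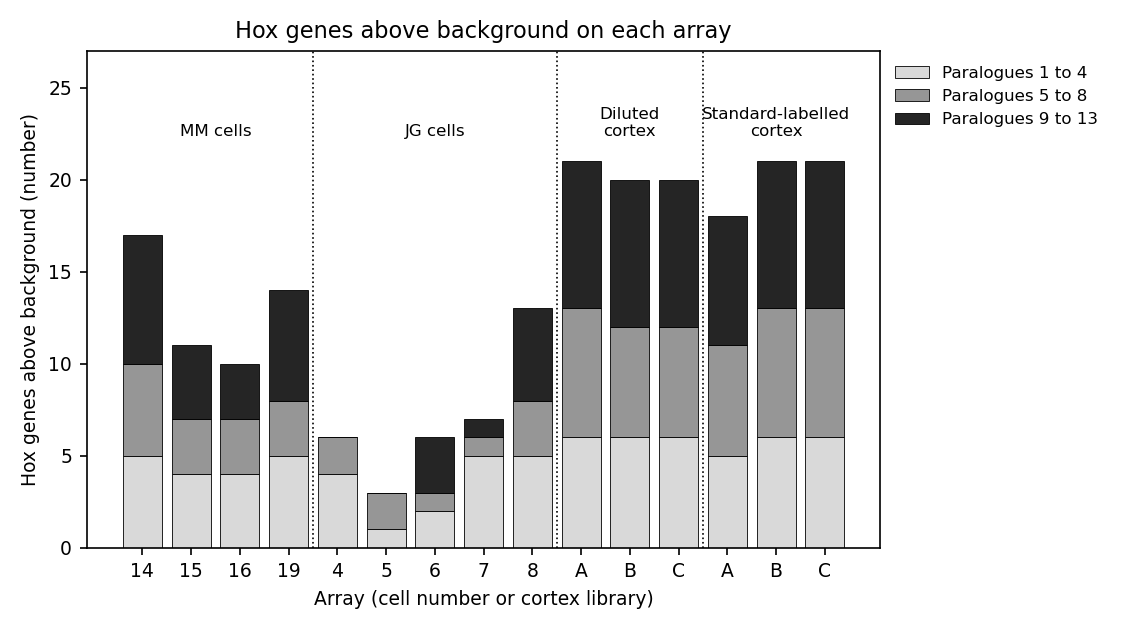
Number of Hox genes above background on each array, stacked by paralogue class; the 4 groups are separated by dotted lines, with cell numbers or library letters on the horizontal axis. MM cells have 10 to 17 members above background and JG cells 3 to 13, while cortex libraries have 18 to 21.

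The members at the far end of the clusters were not detected. No gene of paralogue groups 12 and 13 (6 members in all, Hoxc12, Hoxd12, Hoxa13, Hoxb13, Hoxc13 and Hoxd13) was above background on any array. All 4 members of paralogue group 9 were above it in some array of each group. Of the 3 members of group 10, 3 were above it in MM cells, 1 in JG cells, 3 in diluted cortex and 2 in all libraries of standard-labelled cortex. By cluster, MM cells had 5 of 10 HoxA, 7 of 9 HoxB, 3 of 9 HoxC and 4 of 9 HoxD members above background, and JG cells had 4, 7, 1 and 3. In all 14 members were above background on no array: those 6 and Hoxa2, Hoxa3, Hoxa6, Hoxa11, Hoxc4, Hoxc5, Hoxc11 and Hoxd1. Hoxa4 and Hoxb7 were above it on all 15.

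**Figure D2:**
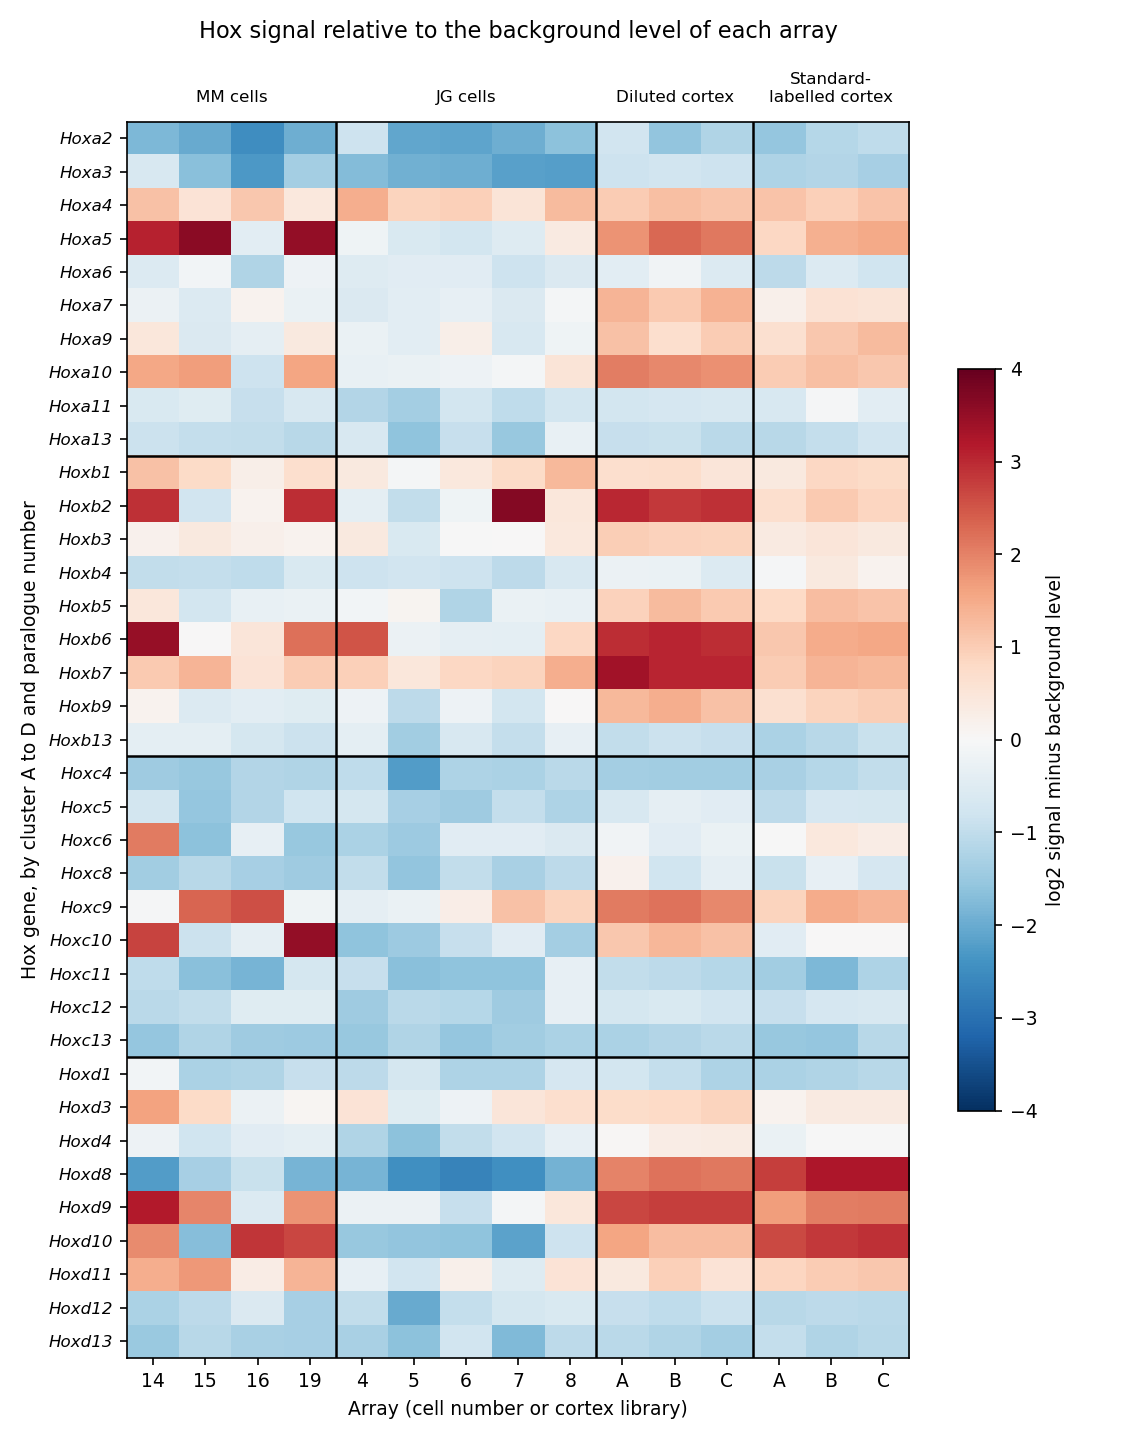
Heat map of 37 Hox genes (rows, by cluster and paralogue number) on 15 arrays (columns, by group), coloured by log2 signal minus the background level of the array; red is above background. Paralogues 12 and 13 stay below it on every array, Hoxd8 is above it only in cortex, and Hoxd10 is above it in 3 MM cells and in cortex but in no JG cell.

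Of the kidney's paralogue 11 genes, only Hoxd11 was above background. Its log2 signal was 8.62, 9.15, 7.88 and 8.50 in MM cells 14, 15, 16 and 19, and 7.41, 7.18, 7.95, 7.19 and 8.11 in JG cells 4 to 8. In diluted cortex it was 6.59, 7.24 and 6.86, and in standard-labelled cortex 7.39, 7.33 and 7.39. It was above background in 4 of 4 MM cells and 2 of 5 JG cells. The MM cells overlapped the JG cells through MM cell 16, which lay below JG cells 6 and 8, and lay above all cortex libraries.

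The other paralogue 11 genes did not reach background on any array, although the labels' tissue is where they are known to act. For Hoxa11 the MM cells read 6.52 to 6.93, the JG cells 6.56 to 7.01, the diluted libraries 5.47 to 5.67 and the standard-labelled libraries 5.88 to 6.25. For Hoxc11 the MM cells read 5.69 to 6.44, the JG cells 6.08 to 7.22, the diluted libraries 5.18 to 5.26 and the standard-labelled libraries 4.50 to 5.14. A gene below background here has a bound only and may still be transcribed.

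Paralogue group 10 held the widest gap between MM and JG means. Hoxd10 read 9.03, 5.71, 10.42 and 9.82 in MM cells 14, 15, 16 and 19, and 6.20, 6.37, 6.16, 5.56 and 6.72 in JG cells 4 to 8. Diluted cortex gave 7.75, 7.52 and 7.55, and standard-labelled cortex 9.17, 9.14 and 9.23. MM cells 14, 16 and 19 were high and MM cell 15 was among the JG cells, so the groups overlapped. The mean of the MM cells exceeded that of the JG cells by 2.54, and no JG cell reached background. With the JG cells set at their background level the difference was 2.01-fold. MM cell 15 was below background too and entered the MM mean at its reading, so this is no firm bound. The gene models of Hoxd10 and Hoxd11 overlap, so their probe sets may share signal.

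Hoxc10 followed with 9.85, 6.56, 7.22 and 10.67 in MM cells 14, 15, 16 and 19, and 6.11, 6.50, 6.83, 7.25 and 6.21 in JG cells 4 to 8. In diluted cortex its signal was 7.27, 7.62 and 7.48, and in standard-labelled cortex 6.07, 6.33 and 6.34. MM cells 14 and 19 were high, and the other MM cells lay among the JG cells. The difference between MM and JG means was 1.999, or 1.79-fold with the JG cells set at their background level. MM cells 15 and 16 were below background too and entered the MM mean at their readings, so this is no firm bound. Hoxa10 had 8.70, 9.09, 6.75 and 8.73 in MM cells 14, 15, 16 and 19, against 7.42, 7.67, 7.56, 7.63 and 8.07 in JG cells 4 to 8. Here MM cell 16 was the low one, below every JG cell, and the mean difference was 0.65.

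Among paralogue group 9, Hoxd9 was 10.33, 9.36, 7.02 and 8.95 in MM cells 14, 15, 16 and 19, against 7.49, 7.70, 6.84, 7.63 and 8.01 in JG cells 4 to 8. MM cells 14, 15 and 19 lay above all JG cells and MM cell 16 among them, with a mean difference of 1.38. Hoxc9 had 7.11, 9.73, 10.13 and 6.97 in MM cells 14, 15, 16 and 19, against 7.36, 7.66, 8.01, 8.87 and 8.45 in JG cells 4 to 8. MM cell 15 was high for both genes, MM cell 16 was high for Hoxc9, and cells 14 and 19, which were high for Hoxc10, were below background for it. Hoxa9 and Hoxb9 stayed between 6.68 and 7.60 in MM cells and between 6.90 and 7.98 in JG cells, near background in both.

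Hoxa5, a gene of the middle of the HoxA cluster, had the second widest gap. It stood at 10.24, 11.03, 7.15 and 10.66 in MM cells 14, 15, 16 and 19, and at 7.56, 7.32, 7.01, 7.20 and 7.92 in JG cells 4 to 8. Diluted cortex read 7.97, 8.59 and 8.43, and standard-labelled cortex 7.35, 7.74 and 7.83. As for Hoxd9, MM cell 16 alone lay among the JG cells. The mean difference of MM and JG cells was 2.37. In RefSeq the Hoxa3 gene model overlaps those of Hoxa4, Hoxa5 and Hoxa6.

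**Figure D3:**
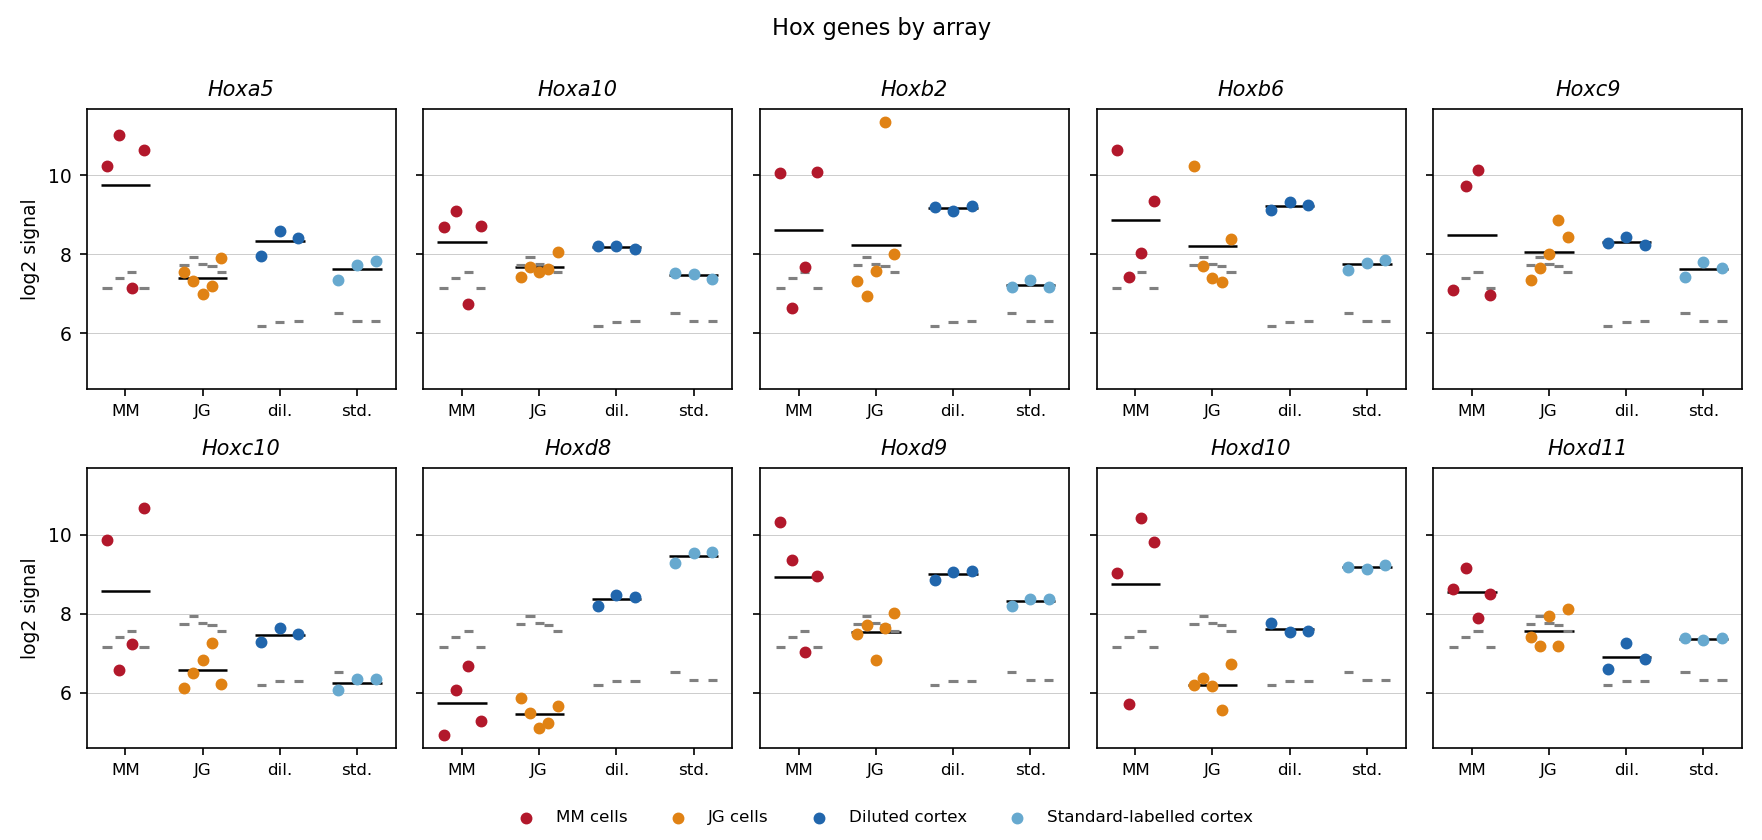
Log2 signal of 10 Hox genes in MM cells, JG cells, diluted cortex (dil.) and standard-labelled cortex (std.); a point is an array, a black line a group mean and a short grey line the background level of that array. MM cell 16, the third red point, is the low one for Hoxa5, Hoxa10 and Hoxd9, and the highest for Hoxc9 and Hoxd10.

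The HoxB genes Hoxb2 and Hoxb6 were high in single cells of both kinds. Hoxb2, a hindbrain patterning gene, had 10.07, 6.64, 7.69 and 10.09 in MM cells 14, 15, 16 and 19, against 7.33, 6.95, 7.58, 11.37 and 8.0003 in JG cells 4 to 8. JG cell 7 held the highest Hoxb2 value of all arrays. The groups overlapped throughout, and their means differed by 0.38. Of 4 contractile markers, JG cell 7 held Acta2 at 12.20 and Myl9 at 12.79 and JG cell 8 Acta2 at 11.32, with the others below background in both. MM cell 19 held Myl9 at 11.80, with the other contractile markers below background. It also held the ureteric bud marker Gata3 at 9.41, and Gata3 read 8.44 in JG cell 7 and 8.95 in JG cell 8. Of the other ureteric bud markers, Ret, Krt18, Cdh1 and Emx2 were below background in these cells. Krt8 was above it in MM cell 19 and JG cell 8, and Wnt11 and Wnt9b only in JG cell 8. The part of these markers in the Hox values of those cells was not tested.

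Hoxb6 had 10.64, 7.44, 8.04 and 9.34 in MM cells 14, 15, 16 and 19, against 10.25, 7.72, 7.41, 7.30 and 8.39 in JG cells 4 to 8. MM cells 14 and 19 and JG cell 4 were high, and the other cells lay within 1 log2 unit of background. Hoxb7 was above background in every cell, at 8.19, 8.75, 8.11 and 8.17 in MM cells 14, 15, 16 and 19, against 8.67, 8.40, 8.58, 8.60 and 9.005 in JG cells 4 to 8. The MM and JG ranges overlapped for Hoxb7 as well. On the probe set shared by Hoxb8 and Hoxb7, MM cells read 7.05 to 7.73, JG cells 6.72 to 7.58, diluted libraries 7.42 to 8.06 and standard-labelled libraries 7.74 to 7.94.

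Hoxc6 was above background in a single cell, MM cell 14. Its signal was 9.23, 5.76, 7.23 and 5.62 in MM cells 14, 15, 16 and 19, against 6.47, 6.48, 7.30, 7.25 and 6.98 in JG cells 4 to 8. No JG cell was above background. MM cell 14 also held the endothelial marker Emcn at 11.77, while the other 3 endothelial markers, Pecam1, Kdr and Cdh5, were below background in it. The part of Emcn in the Hox values of this cell was not tested.

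The other members detected in cells stayed nearer to background. Hoxb1 and Hoxb3 were above it in 4 of 4 MM cells each, and in 4 and 3 of 5 JG cells. Hoxd3 was above it in 3 of 4 MM cells, highest at 8.77 in cell 14, and in 3 of 5 JG cells, highest at 8.27 in cell 4; its gene model overlaps that of Hoxd4. Hoxa7 was above background in 1 cell (MM cell 16, 7.71) and Hoxb5 in 2 (MM cell 14, 7.61, and JG cell 5, 8.06). In no cell were Hoxb4, Hoxc8 or Hoxd4 above it. In cortex, Hoxd4 was above it in all 3 diluted libraries (6.24 to 6.62) and in 0 of 3 standard-labelled ones (6.25 to 6.298), Hoxb4 in 2 standard-labelled libraries and Hoxc8 in 1 diluted library.

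The combination of members at least 1 log2 unit above background differed from cell to cell. MM cells 14 and 19 shared Hoxa5, Hoxa10, Hoxb2, Hoxb6, Hoxb7, Hoxc10, Hoxd9, Hoxd10 and Hoxd11. Both had Foxd1 above background, but the stroma markers Tbx18, Tcf21 and Pdgfra below it. MM cell 15 had Hoxa5, Hoxa10, Hoxb7, Hoxc9, Hoxd9 and Hoxd11, with Hoxd10 below background. MM cell 16, the cell with Six2 at 10.13, had Hoxa4, Hoxc9 and Hoxd10, with Hoxa5, Hoxa10 and Hoxd9 below background. Its array was also the weakest of the MM arrays over all genes. Only 3.54% of them were that far above background, against 11.7%, 7.60% and 11.4% in MM cells 14, 15 and 19. The part of this in its Hox combination was not tested. Of the 19 members above background in some MM cell, 9 ranged over at least 2 log2 units between cells, against 50.1% of the 6074 genes so detected. In JG cells it was 2 of 15 (Hoxb2 and Hoxb6), against 27.6% of 4221 genes. The Hox genes of MM cells had a median range of 1.54, against 2.02 for all such genes, and those of JG cells 0.93, against 1.07.

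For the difference between groups of cells, a gene was called where the means differed by at least 1 log2 unit, no array of one group overlapped the other, and the higher mean reached its background level. Between MM and JG cells no member was called in either direction, where the rule called 0.953% of all genes higher and 0.211% lower in MM cells. Leaving out MM cell 16 gave 4 higher members, Hoxa5, Hoxa10, Hoxd9 and Hoxd11, and leaving out MM cell 15 gave 1, Hoxd10. The median difference over the 37 members was -0.24, with 13 members higher and 24 lower in MM cells. It was -0.19 over all genes and -0.21 over the receptor probe sets, so the members as a whole differed from the receptors by -0.03.

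Against diluted cortex, MM cells had 2 members called higher, Hoxb1 and Hoxd11 (5.41% of members, against 3.34% of all genes), and 2 called lower, Hoxb7 and Hoxd8 (5.41%, against 19.2%). Hoxb1, a hindbrain gene of the front end of its cluster, averaged 8.03 in MM cells and 6.89 in diluted cortex. The median difference over members was 0.74, but the receptor probe sets shifted by 0.82, and relative to them the members' median was -0.075. Measured relative to that shift, Hoxb1 and Hoxd11 were no longer called, and 5 were called lower (Hoxa7, Hoxb5, Hoxb7, Hoxb9 and Hoxd8). No share of all genes is given relative to the shift, so the 5 cannot be set against one. The lower call of Hoxb7 was against diluted cortex only, and was lost with quantile normalization. Its MM cells, at 8.11 to 8.75, lay above all standard-labelled libraries, at 7.52 to 7.66. That mean difference was 0.71, where the receptors shifted by 0.79 between MM cells and standard-labelled cortex.

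JG cells had 2 members called higher than diluted cortex, Hoxa4 and Hoxb1 (5.41% of members, against 3.39% of all genes), and 3 called lower, the neighbours Hoxd8, Hoxd9 and Hoxd10 (8.11%, against 24.5%). Hoxa4 was 9.20, 8.82, 8.71, 8.20 and 8.84 in JG cells 4 to 8, against 7.21, 7.49 and 7.43 in diluted cortex. Relative to the receptor shift of 1.03 neither Hoxa4 nor Hoxb1 was called higher, 10 members were called lower, and the members' median was -0.36 in place of 0.67. Here too no share of all genes is given relative to the shift, so the 10 cannot be set against one. The 2 comparisons share the diluted cortex libraries. Without JG cell 7 there were 5 lower calls, with Hoxb2 and Hoxc10 added.

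Hoxd8 separated cortex from single cells. Its signal was 4.92, 6.08, 6.67 and 5.29 in MM cells 14, 15, 16 and 19, and 5.87, 5.47, 5.10, 5.23 and 5.66 in JG cells 4 to 8. Diluted cortex held 8.18, 8.48 and 8.41, and standard-labelled cortex 9.29, 9.53 and 9.56. No cell overlapped a cortex library, and no cell reached its background. As a bound, the mean of MM cells was at least 2.05-fold lower than that of diluted cortex, and the mean of JG cells at least 1.54-fold lower. It was called lower in both kinds of cells under each scaling tried. Hoxd10 in JG cells, at a mean of 6.20 against 7.61 in diluted cortex, allows no fold, since the background of the JG arrays lay above the cortex value.

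The 2 ways of labelling the cortex gave different Hox values, and this was the comparison with a test, limma over 19531 probe sets. Of 25 members tested, 12 were higher in diluted than in standard-labelled cortex and 6 lower at an adjusted p under 0.05, while 7 passed in neither direction. The test called 38.0% of all probe sets higher and 36.7% lower. The array medians of diluted cortex lay 0.18 below those of standard-labelled cortex. With each array centred on its median the split was 15 higher and 4 lower for members, and 8932 higher and 5846 lower for all probe sets, in place of 7430 and 7169. Centring brought in Hoxa6, Hoxc5 and Hoxd4 as higher, and Hoxa11 and Hoxd11 were no longer called lower.

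Hoxb2 had the largest rise among the members. It averaged 9.17 ± 0.06 in diluted and 7.23 ± 0.09 in standard-labelled cortex (SD, n = 3 each), a log2 fold change of 1.94 ± 0.09 (SE, adjusted p = 4.55e-07). Of the other HoxB members, Hoxb7, Hoxb6, Hoxb3 and Hoxb9 also rose. Hoxb7 averaged 9.40 ± 0.13 in diluted and 7.60 ± 0.07 in standard-labelled cortex, a change of 1.81 (adjusted p = 1.06e-06), and Hoxb6 averaged 9.23 ± 0.10 in diluted and 7.75 ± 0.12 in standard-labelled cortex, a change of 1.49 (adjusted p = 3.61e-06). Hoxb3 and Hoxb9 rose by 0.40 and 0.35. Hoxb4, whose gene model overlaps that of Hoxb3, instead fell by 0.61 (adjusted p = 0.00115), while Hoxb1 (-0.15) and Hoxb5 (-0.09) did not pass.

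The HoxD cluster moved in both directions. Hoxd10 averaged 7.61 ± 0.13 in diluted and 9.18 ± 0.04 in standard-labelled cortex (SD, n = 3 each), a log2 fold change of -1.57 ± 0.10 (SE, adjusted p = 1.95e-06). Hoxd8 had a change of -1.10 ± 0.12 (adjusted p = 5.45e-05) and Hoxd11 one of -0.47 ± 0.16 (adjusted p = 0.0263). Hoxd9, which lies between Hoxd10 and Hoxd8, rose by 0.68 ± 0.10 (adjusted p = 0.000394), with 8.86, 9.05 and 9.07 in diluted cortex and 8.19, 8.37 and 8.38 in standard-labelled cortex. Hoxd3 rose by 0.41. No diluted library overlapped a standard-labelled one for Hoxd8, Hoxd9 or Hoxd10.

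In the other clusters, Hoxc10 rose by 1.21 ± 0.12 (adjusted p = 4.28e-05) and Hoxc9 by 0.69 ± 0.12 (adjusted p = 0.00102). Hoxa7, Hoxa10 and Hoxa5 rose by 0.73, 0.71 and 0.69. Hoxc6 fell by 0.63 (adjusted p = 0.000758) and Hoxa11 by 0.42 (adjusted p = 0.0153), both at levels close to or below background. Hoxa4, Hoxa6, Hoxa9, Hoxc8 and Hoxd4 did not pass, with changes between -0.16 and 0.31. The remaining 12 members were too dim for the test.

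**Figure D4:**
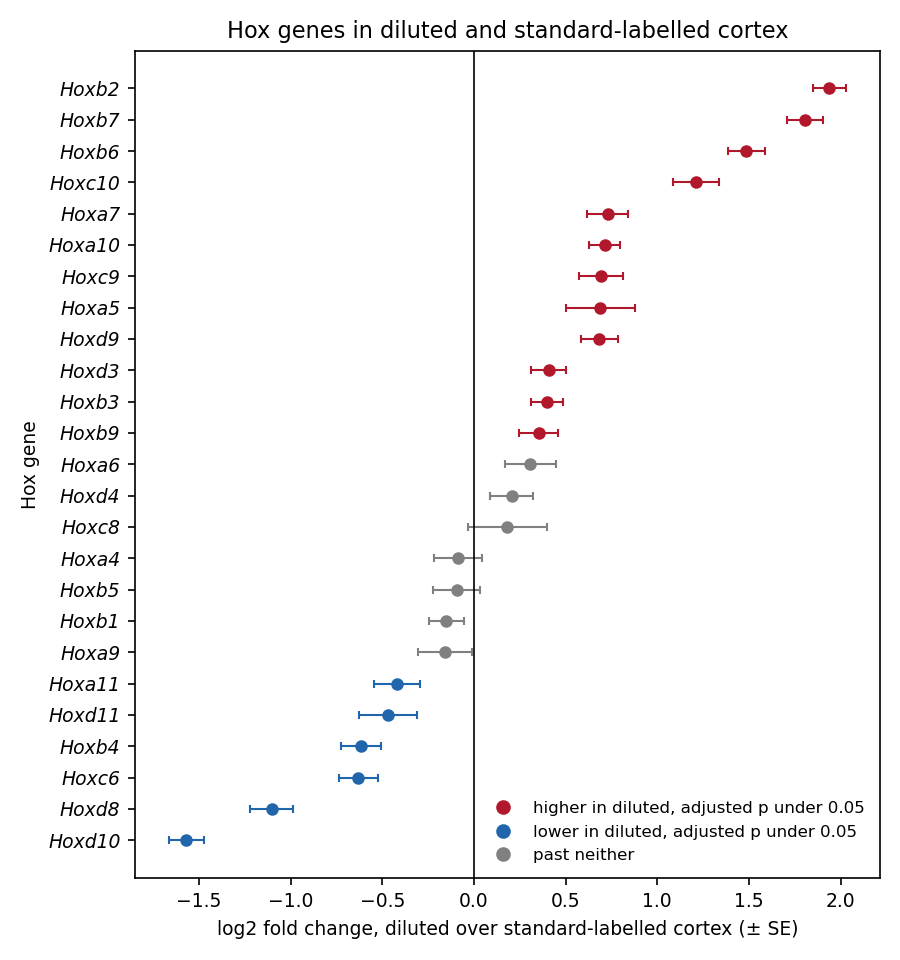
Log2 fold change of the 25 tested Hox genes in diluted over standard-labelled cortex, with the standard error as bars (3 libraries a group); red and blue mark limma's adjusted p under 0.05. Hoxb2, Hoxb7 and Hoxb6 lie farthest to the right, and Hoxd10 and Hoxd8 farthest to the left.

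Noncoding genes within the clusters differed from one another. Of 16 listed, 10 were measured, and 5 entered the cortex test. Higher in diluted cortex were Mir196b and, named after its value was seen, Hoxd3os1 (1.08), while Haglr (-0.12) and Mir615 (-0.18) did not pass. The Mir196b gene, whose sequence is given above, read 6.68, 6.66, 6.65 and 7.06 in MM cells 14, 15, 16 and 19, and 6.75 to 6.91 in JG cells. It read 8.74, 9.28 and 9.02 in diluted and 6.78, 6.77 and 6.75 in standard-labelled cortex, a log2 fold change of 2.25 (adjusted p = 1.95e-06). Neither Mir196a gene, with the same seed, was above background on any array. Mir10a and Mir10b stayed between 2.92 and 4.45 on all arrays.

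Haglr, a noncoding RNA gene between Hoxd3 and Hoxd1, was above background in MM cells 14 (9.42) and 15 (10.69). The other MM cells read 5.75 and 5.83, and JG cells 5.37 to 6.26. For Mir615, inside the Hoxc5 gene model, MM cells read 7.73 to 8.94 and JG cells 8.52 to 9.38, while diluted libraries read 6.71 to 7.20. It was called higher in both kinds of cells than in diluted cortex, in MM cells not relative to the receptor shift, while Hoxc5 itself stayed below background.

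Among the DNA binding cofactors, 8 genes were measured. Pbx2 was 10.90, 11.24, 8.80 and 9.61 in MM cells 14, 15, 16 and 19, against 7.30, 7.88, 7.02, 6.88 and 6.67 in JG cells 4 to 8. The groups did not overlap, and Pbx2 was the 1 cofactor of 8 called higher in MM than in JG cells, under each scaling tried. Meis1 was called higher too under each of the 3 other scalings, the receptor shift, array-median centring and quantile normalization. For Pbx2, diluted cortex had 8.44, 8.59 and 8.58 and standard-labelled cortex 7.29, 7.51 and 7.24. Meis genes were high in single MM cells: Meis1 at 11.00 in cell 15, Meis2 at 10.97 and Meis3 at 11.23 in cell 19. Outside those cells, Meis1 and Meis3 lay at 6.78 to 7.72 in MM cells, and Meis2 at 8.44 in cell 15 and at 6.23 and 6.47 in the others. In the cortex test 3 of the 8 cofactors were higher in diluted cortex and 1 lower, against 38.0% and 36.7% of all probe sets.

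**Figure D5:**
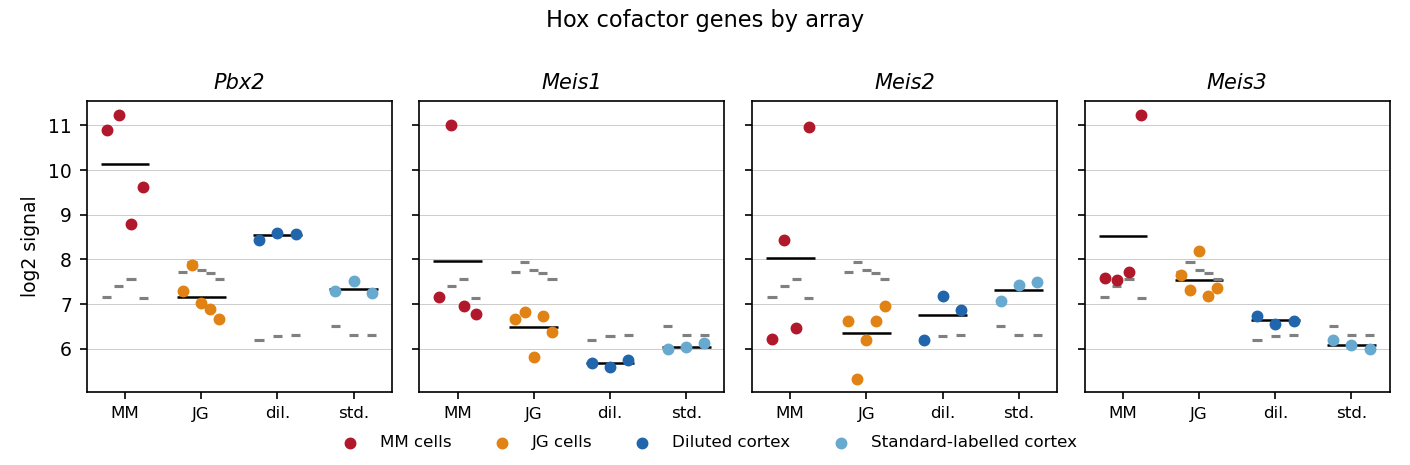
Log2 signal of 4 Hox cofactor genes in MM cells, JG cells, diluted cortex (dil.) and standard-labelled cortex (std.); points are arrays, black lines group means and grey lines the background of each array. Pbx2 is higher in all 4 MM cells (8.80 to 11.24) than in any JG cell (6.67 to 7.88), while each Meis gene has 1 MM cell between 10.97 and 11.23.

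Of the Hox11 partners and targets in the kidney, 9 of 10 were measured. Between MM and JG cells none was called. Against diluted cortex 2 were called higher in MM cells, Six2 and Pax2, where 3.34% of all genes were. Of the 2, Six2 was still called relative to the receptor shift. For Gdnf the MM cells read 6.80 to 7.85, the JG cells 7.19 to 7.99 and the diluted libraries 5.58 to 5.76. Gdnf was above background in only 1 MM cell and 1 JG cell and in no cortex library, and was not called. Six2 stood at 6.69 to 7.53 in the MM cells other than cell 16.

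Of the Polycomb genes, 12 of 13 were measured. Cbx2 was called higher in MM cells than in diluted cortex, at 8.51 to 9.51 against 7.66 to 8.02, a call that was lost relative to the receptor shift. Eed, a core subunit of Polycomb complex PRC2, was called lower, at 4.60 to 4.84 against 8.39 to 8.59. Eed was below background in every cell, also in JG cells (4.98 to 5.49). The cortex test placed 5 of the 12 higher and 5 lower in diluted cortex, against 38.0% and 36.7% of all probe sets. Of the Trithorax and other regulators, 11 of 12 were measured. Called lower in MM cells than in diluted cortex were 2, Ctcf and Wdr5, where 19.2% of all genes were. In the cortex test 4 of 9 were higher and 5 lower, beside the same shares of all probe sets.

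Genes beside the clusters were measured for 13 of 15. In MM cells 14, 15, 16 and 19, Mtx2, next to the HoxD cluster, was 11.93, 10.64, 5.39 and 10.16, against 4.75 to 5.58 in JG cells and 11.06 to 11.14 in diluted cortex. As for Hoxa5, Hoxa10 and Hoxd9, MM cell 16 was the low one among the MM cells. Hibadh, beside the HoxA cluster, was high in diluted cortex at 11.99 to 12.03 and below background in all cells at 5.40 to 6.03.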

How the data were processed

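For 15 arrays the authors deposited log2 signals of 35557 probe sets, which ran from 2.22 to 13.98. Affymetrix Expression Console made them, per the submitters' processing notes. Neither its version nor the algorithm or normalization is given in the sources used here, and the values were not rescaled. Genes were named through the platform annotation (21789 probe sets with 1 symbol, 1621 with several, 12147 with none), and the brightest probe set stood for a gene. All 37 members matched RefSeq by Entrez ID. An array has no count depth, and the number of arrays limits the precision.

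Diluted and standard-labelled cortex were compared with limma 3.58.1 in R 4.3.3 (no covariate, Benjamini-Hochberg adjustment over 19531 probe sets whose higher group mean reached the median signal of 5.83), and the step was tested on simulated data. Cells were compared by size only. Tables and figures used Python 3.11.15, pandas 2.3.3, numpy 2.4.6 and matplotlib 3.10.9. Alternatives covered scaling, background level, filter, reference, replicate block and leaving out each array.

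The members and lists were chosen with earlier results of these data known. All members could be named; from each other list, up to 4 genes with the largest difference of MM and diluted cortex means, and the cell type markers.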

Additional observations from a re-analysis of the deposited data

Results flagged for a closer look

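In the 74 groups of 4 or 5 cells (37 members in MM and JG cells), 9 had a cell that stood apart from the rest by the gap to its nearest neighbour over the group's range; chance flags about 1 in 20 groups. In 3 of them that cell was above background. Hoxb2 was at 11.37 in JG cell 7, with the next JG cell at 8.0003. Hoxb7 was at 8.75 in MM cell 15, with the next MM cell at 8.19, and Hoxa7 was at 7.71 in MM cell 16, with the next at 6.92. Hoxa10 was low in MM cell 16, at 6.75, with the next MM cell at 8.70 and the other MM cells above background.

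The other 5 lay below background in the cells concerned and have no order there: Hoxc5 low in MM cell 15 (5.87), Hoxa2 high in JG cell 4 (6.91), and in JG cell 5 Hoxc4 low (5.69), Hoxc13 high (6.73) and Hoxd12 low (5.94). JG cell 5 had the highest background level of its group, 7.94.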

How the results depend on the processing

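Of 178 recomputed values, 150 stayed within a tolerance of the main value, 26 moved beyond it and 2 reversed. The cause was not tested. The tolerance was wide, and a value within it could still change in size. For MM minus JG cells the median difference over members, -0.244, counted as kept at -0.03 relative to the receptor shift. It also counted as kept at -0.105 with array-median centring, as did 19 members above background in MM cells that became 28. Relative to the receptor shift, the median difference over members reversed to -0.075 for MM cells and -0.36 for JG cells against diluted cortex, with 0 members called higher and 5 lower in MM cells, and 0 higher and 10 lower in JG cells. With array-median centring these medians were 0.37 and 0.16, with 1 member higher in MM cells, and 0 higher and 7 lower in JG cells. Quantile normalization gave 1 member lower in MM than in JG cells (Hoxb7), 5 higher and 1 lower in MM cells than in diluted cortex, and 6 higher in JG cells. With standard-labelled cortex as the reference, 1 member was lower in MM cells and 4 were higher in JG cells. For these alternatives no share of all genes is given beside the members called. With the highest receptor signal as the background level, members above it numbered 12 in MM cells, 5 in JG cells, 8 in diluted and 2 in standard-labelled cortex. With the 95th percentile there were 28 in MM cells, 28 in JG cells, 23 in diluted and 23 in standard-labelled cortex. Cells were counted if any cell passed and cortex only if every library passed, so these counts do not rank cells and cortex. With 1 log2 unit added, chosen after seeing the data, there were 6 in JG cells, 13 in diluted and 6 in standard-labelled cortex.

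Leaving out 1 array at a time gave 0 to 4 members higher in MM than in JG cells (4 without MM cell 16), 3 to 5 lower in JG cells than in diluted cortex, and 12 to 14 higher and 5 to 6 lower in diluted than in standard-labelled cortex. With the cortex letters as a replicate block the last counts were 13 and 6. The letters' libraries deviated together with a correlation of 0.16, 0.15 and 0.04 over probe sets for A, B and C, so they were taken to share only a letter.

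Precision is limited by 4 and 5 cells a group, by a background level that differs between groups, and by unstated normalization. Absence of signal is a bound only. Whether embryo, age, sex, dissociation or cell type goes with a difference between MM and JG cells cannot be told apart.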
